A study of Mus musculus with 24 samples.

Results

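Cadherins and protocadherins are cell surface adhesion proteins, and their genes were examined here for dimethylation of histone H3 at lysine 9 (H3K9me2) in mouse heart. The genes were all protein-coding RefSeq genes of mouse build mm10 whose symbol begins with Cdh or Pcdh followed by a letter or digit, and a gene entered when a region in the deposited tables overlapped it or lay within 2 kb. Of 97 such symbols 40 had a region, and these regions numbered 184 of the 53386 listed in all, each counted once. The 4 groups were H3K9me2 of the area at risk (AAR), H3K9me2 of the remote myocardium (RM), input of the AAR and input of the RM, with 6 libraries each. Every library came from C57BL6 mice aged 12 months, 3 female and 3 male, and the same 6 animals gave all 4 groups. All 6 hearts had been preconditioned by 4 cycles of coronary ligation, 5 min of ischemia and 5 min of reperfusion each, with a last reperfusion of 30 min. The AAR lies downstream of the ligature and the RM does not, so the RM is a remote reference within a treated heart. Sham hearts were not analysed here.

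In classical cadherins the extracellular repeats bind calcium and pair with the same cadherin on the neighbouring cell, while the tail binds catenins and so the actin cytoskeleton. N-cadherin and VE-cadherin carry this role at the intercalated discs of cardiomyocytes and between endothelial cells. Clustered protocadherins are encoded side by side in alpha, beta and gamma groups, and in neurons each cell uses its own combination of them. In the gamma group each gene joins its own variable exon to shared constant exons, so the annotated genes overlap. The methyltransferases G9a and GLP deposit most H3K9me2 in euchromatin, where it is associated with silent genes. Biopsies are mixtures of cell types, so fewer cells with the mark and less mark per cell cannot be told apart, and the mark is no measure of expression.

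Precipitated chromatin and input were both sequenced, and counts were scaled within the listed regions. A value above input thus means that precipitation raised a region relative to the other listed regions. Enrichment over the rest of the genome was not measured, and a value below input does not show that the mark is absent. Levels are given as CPM, which is the count of a region scaled to a library total of 1000000, and comparisons as a log2 fold change of H3K9me2 over input with its standard error (SE). A region was called higher or lower at a Benjamini-Hochberg adjusted p (FDR) under 0.05 in edgeR's quasi-likelihood test, adjusted over all regions tested. Counts in regions totalled 416683 to 1196368 per library for H3K9me2 of the AAR and 443261 to 981763 for the RM. The inputs held 1286383 to 2478668 counts in the AAR and 1405503 to 1770520 in the RM. The regions listed for the cadherin family were 800 to 9000 bases wide with a median of 2600. Of the 184 regions, 61 overlapped another listed region and 13 held no read in any library. After the filter on low counts 155 were tested against input in each biopsy, and 29 were not.

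The family was listed unevenly. All 5 type I classical cadherins had a region, against 4 of 13 type II classical cadherins, namely Cdh5, Cdh20, Cdh22 and Cdh24. Of the 57 clustered protocadherins the 21 gamma genes had regions, and 0 of 14 alpha and 0 of 22 beta genes had one. Among non-clustered protocadherins regions were listed at Pcdh1, Pcdh12 and Pcdh17. None was listed at Pcdh7, Pcdh8, Pcdh9, Pcdh10, Pcdh11x, Pcdh15, Pcdh18, Pcdh19 or Pcdh20. The remaining classical cadherins without a region were Cdh6, Cdh7, Cdh8, Cdh9, Cdh10, Cdh11, Cdh12, Cdh18 and Cdh19, and Cdh17, Cdh26 and Cdhr1 had none either. In all, 41.2% of the family's symbols had a region, against 55.0% of the 21900 protein-coding genes. Outside the cluster, 6 of 19 family genes of at least 100 kb had one (31.6%), against 1575 of all 2429 coding genes of that length (64.8%). The regions are the same in all 4 groups, and how the authors chose them is not given in the sources used here, so a gene without a region is not shown to lack the mark. The regions were concentrated in few genes: Cdh23 held 57, Cdh13 held 29, Cdh4 held 23 and Cdh22 held 17.

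A region covered the 250 bases upstream of a RefSeq start in 6 genes of the family that are in the promoter table. In Cdh22, with 30 CG, the region with reads did not pass the filter on low counts in the fits against input. In Cdhr5, with 7, no call was made. The bases of the other 4, Cdh20, Cdh24, Cdh23 and Cdh15, are shown because their regions differed in the mark: enriched at Cdh20, lower than input at Cdh24 in the AAR and at Cdh23 in the RM, and not called at Cdh15. Sequences are from RefSeq on GRCm38.p6, the assembly of mm10, written 5′ to 3′ on the strand of the gene, with each CG in capitals. They lie at chr1:104768270-104768519 (plus strand) for Cdh20, chr14:54641365-54641614 (minus) for Cdh24, chr10:60696491-60696740 (minus) for Cdh23 and chr8:122848124-122848373 (plus) for Cdh15.
Cdh20: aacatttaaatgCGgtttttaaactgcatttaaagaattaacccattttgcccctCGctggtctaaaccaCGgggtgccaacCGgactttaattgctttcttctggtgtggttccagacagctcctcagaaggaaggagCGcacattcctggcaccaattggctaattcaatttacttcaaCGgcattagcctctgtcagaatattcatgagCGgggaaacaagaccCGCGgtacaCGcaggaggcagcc
Cdh24: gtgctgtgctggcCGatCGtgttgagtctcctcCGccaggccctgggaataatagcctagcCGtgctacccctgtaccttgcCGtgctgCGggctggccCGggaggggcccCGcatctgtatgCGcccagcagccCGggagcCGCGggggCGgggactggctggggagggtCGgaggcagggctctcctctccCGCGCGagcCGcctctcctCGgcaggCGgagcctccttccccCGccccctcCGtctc
Cdh23: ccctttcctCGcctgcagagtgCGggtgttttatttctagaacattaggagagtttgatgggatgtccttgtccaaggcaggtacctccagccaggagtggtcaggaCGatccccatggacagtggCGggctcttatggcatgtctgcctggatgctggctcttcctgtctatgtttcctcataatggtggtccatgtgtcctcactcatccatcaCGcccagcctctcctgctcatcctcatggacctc
Cdh15: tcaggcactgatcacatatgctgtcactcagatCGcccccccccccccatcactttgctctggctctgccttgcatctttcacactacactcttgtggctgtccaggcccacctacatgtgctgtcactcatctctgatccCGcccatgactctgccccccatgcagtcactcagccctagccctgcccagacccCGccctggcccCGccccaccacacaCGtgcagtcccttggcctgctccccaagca
The motif searched was CG, which reads the same on both strands. It occurs 10 times upstream of Cdh20, 22 times upstream of Cdh24 and 5 times each upstream of Cdh23 and Cdh15. Of 32851 such promoters in the RefSeq table, 37.8% hold at least 10, 14.8% at least 22 and 55.6% at least 5, and the median is 6. The 10 promoters of family genes with a region in the table had a median of 6, and the 20 of family genes without one a median of 7.5.

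Against input, H3K9me2 over the family leaned upward in both biopsies, and most of that came from a few long genes. In the AAR 35 of 155 tested regions were higher than input and 6 were lower, while over all regions tested 23.6% were called, 11.3% higher and 12.3% lower. In the RM 60 were higher and 10 lower of 155, while over all regions 40.5% were called, 20.5% higher and 20% lower. The median log2 fold change of the family was 0.22 in the AAR and 0.26 in the RM, against 0.01 in each over all regions. Of the regions called higher, 31 were called in both biopsies, which is 88.6% of those in the AAR and 51.7% of those in the RM. None was called in opposite directions. Without Cdh13, Cdh4 and Cdh23, a choice made with their values known, 6 of 60 regions were higher and 5 lower in the AAR, and 12 higher and 6 lower in the RM, with medians of 0.06 and 0.05. Without mouse 19 the family's 41 calls in the AAR became 27, and leaving out any other mouse gave 29 to 43.

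**Figure D1:**
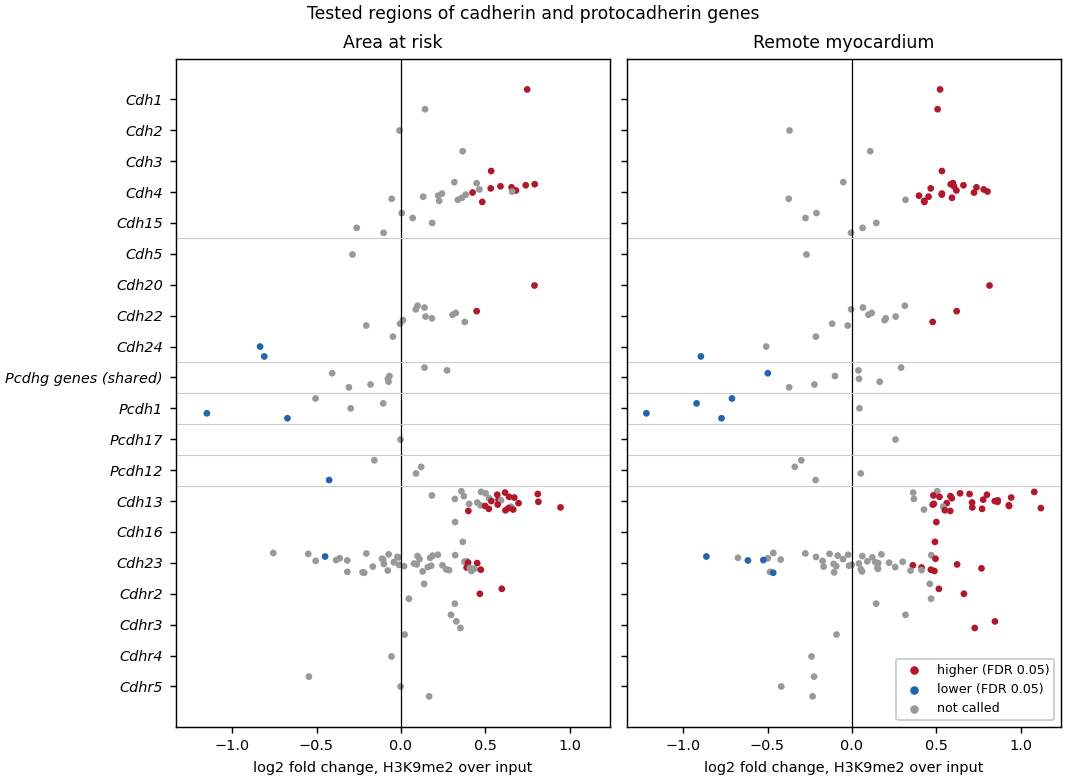
Log2 fold change of H3K9me2 over input for every tested region, 1 point per region, by gene and class, in the area at risk (left panel) and remote myocardium (right panel). Cdh13 and Cdh4 lie almost wholly right of 0, Cdh23 lies on both sides, and Pcdh1 and Cdh24 lie mostly left of 0.

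Of the type I classical cadherins, Cdh4, Cdh1 and Cdh3 carried regions above input, and Cdh2 and Cdh15 did not. Over all regions tested, 11.3% were higher and 12.3% lower in the AAR, and 20.5% and 20% in the RM. The 30 tested type I regions had median log2 fold changes of 0.36 in the AAR and 0.49 in the RM. Of them, 10 were higher and 0 lower in the AAR, and 20 were higher and 0 lower in the RM. Cdh4 encodes R-cadherin, known from retina and other neural tissue, and its 20 tested regions gave 8 of those calls in the AAR and 17 in the RM. The 8 called in the AAR were all among the 17 of the RM. Its region of smallest p in the RM, chr2:179730400-179735999, held 56.1, 75.7 and 100.8 CPM (lowest, median and highest of 6) in AAR H3K9me2, and 68.2, 72.9 and 90.0 CPM in RM H3K9me2. The inputs there held 33.5, 46.6 and 54.1 CPM in the AAR and 44.7, 48.2 and 59.8 CPM in the RM. In either biopsy all H3K9me2 libraries lay above all inputs. This amounted to log2 fold changes of 0.68 in the AAR (SE 0.14, FDR 0.000200) and 0.62 in the RM (SE 0.11, FDR 1.75e-06). The largest values in Cdh4 were 0.79 in the AAR, at chr2:179521200-179523799 (SE 0.19, FDR 0.0018), and 0.80 in the RM, at the narrow region chr2:179741800-179742599 (SE 0.28, FDR 0.0161). Of its 20 regions 19 had a value above 0 in the AAR and 18 in the RM. The lowest, at chr2:179873600-179876799, had −0.05 and −0.37 and was not called in either biopsy.

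Cdh1, the E-cadherin gene of epithelia, had 2 tested regions. The first, chr8:106620600-106623799, held 15.1, 20.4 and 30.1 CPM in AAR H3K9me2, against 8.55, 12.4 and 14.9 CPM in AAR input, and the groups did not overlap. It held 13.5, 18.5 and 31.95 CPM in RM H3K9me2, against 8.26, 15.9 and 18.6 CPM in RM input, where the groups overlapped. The log2 fold change was 0.75 in the AAR (SE 0.23, FDR 0.0129) and 0.52 in the RM (SE 0.21, FDR 0.0326). The AAR call was lost without mouse 17 (FDR 0.0750) or without mouse 19 (FDR 0.0621). The second region was called in the RM only, at 0.51, where DESeq2 gave an adjusted p of 0.0613 and the call was lost without mouse 19, 22 or 30. Cdh3, the P-cadherin gene next to Cdh1 on chromosome 8, had 1 of 2 regions called, at chr8:106526400-106529799. That region held 25.1, 45.3 and 50.1 CPM in AAR H3K9me2 and 22.6, 37.4 and 69.7 CPM in RM H3K9me2. Its inputs held 20.2, 27.3 and 34.7 CPM in the AAR and 21.3, 29.5 and 37.3 CPM in the RM, so the groups overlapped in both biopsies. Its log2 fold change was 0.54 in the AAR (FDR 0.0114) and 0.53 in the RM (FDR 0.00187). In the RM that value was 0.26 without mouse 23 (FDR 0.211), and in the AAR the call was lost without mouse 19, 27 or 30.

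Cdh2 encodes N-cadherin, the classical cadherin of cardiomyocytes, and had 1 region, at the end of the gene with the higher coordinate (chr18:16806400-16809599). It held 20.9, 28.9 and 32.6 CPM in AAR H3K9me2, 11.3, 24.9 and 29.9 CPM in RM H3K9me2, 22.3, 28.6 and 32.6 CPM in AAR input and 27.2, 28.7 and 35.6 CPM in RM input. In the AAR mouse 23 lay just below the lowest input and the groups otherwise overlapped, and in the RM the libraries of mice 22 and 23 were lowest. The log2 fold change was −0.01 in the AAR (SE 0.17) and −0.37 in the RM (SE 0.17, FDR 0.0666). With the mouse as a block the RM value was −0.40 and passed the threshold (FDR 0.0469). The difference between the biopsies in H3K9me2 was 0.25 (AAR minus RM, SE 0.21, unadjusted p 0.241). Cdh15 encodes M-cadherin of skeletal muscle, and its 5 tested regions ran from −0.26 to 0.19 in the AAR and from −0.28 to 0.14 in the RM, none called. The one over its promoter held 31.2, 40.4 and 48.0 CPM in AAR H3K9me2 and 22.6, 30.8 and 46.4 CPM in RM H3K9me2. Its inputs held 31.1, 40.1 and 50.03 CPM in the AAR and 29.4, 38.0 and 44.7 CPM in the RM, and the groups overlapped throughout.

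Type II classical cadherins had few calls: of 17 tested regions, 2 were higher and 2 lower in the AAR, and 3 higher and 1 lower in the RM. The median was 0.10 in each. The AAR shares, 11.8% each way, lay near the 11.3% higher and 12.3% lower over all regions. In the RM 17.65% were higher and 5.9% lower, against 20.5% and 20% over all regions. Cdh20, best known from the nervous system, had 1 region, chr1:104765800-104769599, which covers the promoter printed above. It held 25.9, 46.5 and 58.5 CPM in AAR H3K9me2, 27.5, 45.8 and 68.2 CPM in RM H3K9me2, 17.6, 24.3 and 34.7 CPM in AAR input and 19.1, 25.7 and 34.2 CPM in RM input. H3K9me2 exceeded input in each of the 6 mice in both biopsies, although the ranges of the groups overlapped. This gave log2 fold changes of 0.79 in the AAR (SE 0.18, FDR 0.000871) and 0.81 in the RM (SE 0.15, FDR 2.34e-06).

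Cdh24 went the other way, with 2 of its 3 tested regions lower than input in the AAR and 1 in the RM. At chr14:54642800-54645399 H3K9me2 held 9.004, 13.5 and 20.8 CPM in the AAR and 11.2, 15.5 and 17.0 CPM in the RM. The inputs held 14.9, 24.3 and 31.5 CPM in the AAR and 24.9, 26.3 and 30.9 CPM in the RM. The groups overlapped in the AAR and did not in the RM. Log2 fold changes of −0.81 in the AAR (SE 0.22, FDR 0.00526) and −0.90 in the RM (SE 0.20, FDR 7.67e-05) resulted. This region also lies within 2 kb of the neighbouring gene Acin1, as does the one over the CpG-rich Cdh24 promoter, so the values cannot be given to 1 of the 2 genes. The promoter region, chr14:54640800-54641799, had −0.83 in the AAR (SE 0.32, FDR 0.0453) and −0.51 in the RM (SE 0.27, FDR 0.127). It is shallow, with 1.80, 6.11 and 10.9 CPM in AAR H3K9me2 against 7.69, 10.9 and 20.8 CPM in AAR input.

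Cdh5, the VE-cadherin gene of endothelial cells, had 1 region, at its end of lower coordinate (chr8:104100200-104105799). It held 21.6, 41.5 and 48.6 CPM in AAR H3K9me2, 29.0, 43.2 and 48.1 CPM in RM H3K9me2, 41.2, 49.0 and 56.9 CPM in AAR input and 40.5, 48.0 and 57.2 CPM in RM input. H3K9me2 medians were below those of input, and the groups overlapped in both biopsies. Log2 fold changes were −0.29 in the AAR (SE 0.14, FDR 0.123) and −0.27 in the RM (SE 0.13, FDR 0.0889), and neither was called. Cdh22 had 12 tested regions along 123.4 kb, of which 1 was higher in the AAR and 2 in the RM, with medians of 0.14 and 0.16. Its region chr2:165157000-165159999 had 0.45 in the AAR (FDR 0.0384) and 0.62 in the RM (FDR 0.000242). The AAR call at that region was lost in DESeq2 (adjusted p 0.0622) and without mouse 19, 22, 27 or 30.

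**Figure D2:**
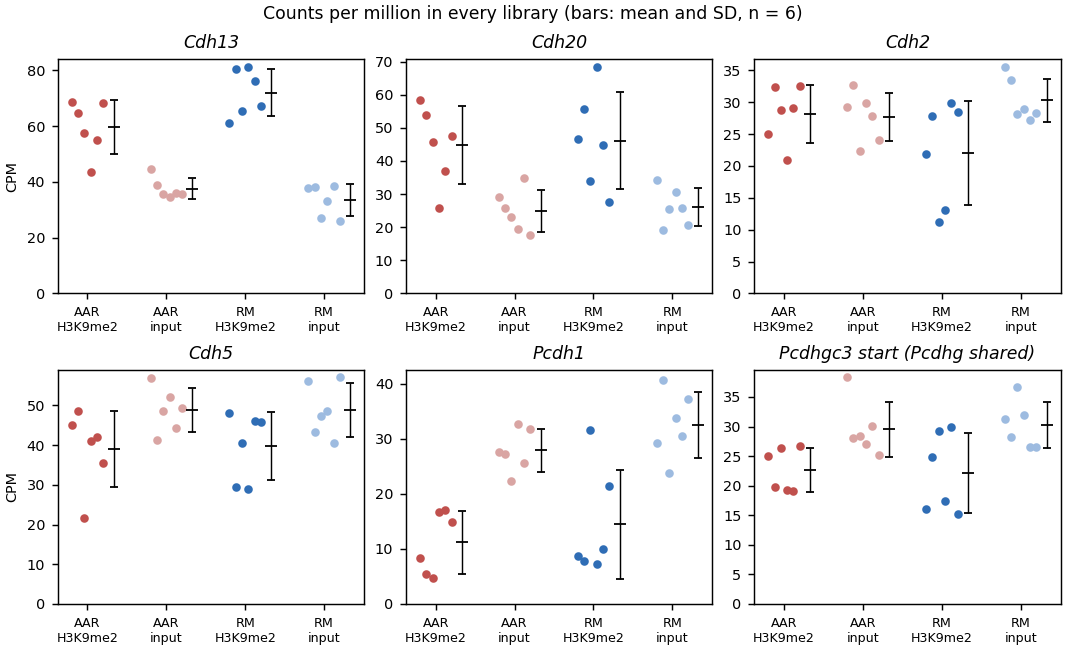
CPM of 6 regions in every library, 1 point per library in the order of mouse number, with mean and SD beside each group of 6. H3K9me2 libraries lie mostly above input at Cdh13 and Cdh20, within or near the input range at Cdh2 and Cdh5, and mostly below it at Pcdh1 and at the gamma protocadherin region near the Pcdhgc3 start.

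The protocadherin cluster on chromosome 18 had 8 regions, and none was called higher than input. Over all regions 11.3% in the AAR and 20.5% in the RM were called higher, so with 8 regions a count of 0 lies near that share. Its annotated genes span chr18:36930285-37841873, and its regions all lay in or just past the gamma group, whose genes span chr18:37661775-37841873. The overlap of the gamma genes means that 5 of the 8 regions belong to all 21 genes at once, so the 21 genes are not 21 measurements. In the AAR 0 of 8 regions were called, with a median of −0.08, and in the RM 0 were higher and 1 was lower, with a median of −0.03. Their SEs ran near the family's medians of 0.19 in the AAR and 0.18 in the RM, so shifts of about that size could not be detected. The one called region, chr18:37806000-37808999, spans the start coordinate of Pcdhgc3, an isoform of the C type. It held 19.0, 22.4 and 26.7 CPM in AAR H3K9me2, 15.3, 21.1 and 29.9 CPM in RM H3K9me2, 25.2, 28.2 and 38.5 CPM in AAR input and 26.6, 29.8 and 36.7 CPM in RM input. Most H3K9me2 libraries lay below the inputs, and the ranges overlapped in both biopsies. The log2 fold change was −0.41 in the AAR (SE 0.18, FDR 0.0857) and −0.50 in the RM (SE 0.17, FDR 0.0141). The RM call was lost in DESeq2 (adjusted p 0.0521) and without mouse 17, 23 or 30.

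No test was made between positions within the gamma group. The 2 regions near the starts of Pcdhga6 and Pcdhga7 were above 0, with 0.14 and 0.27 in the AAR and 0.29 and 0.04 in the RM. From the Pcdhgc5 start to the shared end, 4 regions ran from −0.18 to −0.07 in the AAR and from −0.22 to 0.16 in the RM. The region just past the shared end, chr18:37842800-37845599, had −0.31 in the AAR (SE 0.19) and −0.37 in the RM (SE 0.18, FDR 0.0779).

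**Figure D3:**
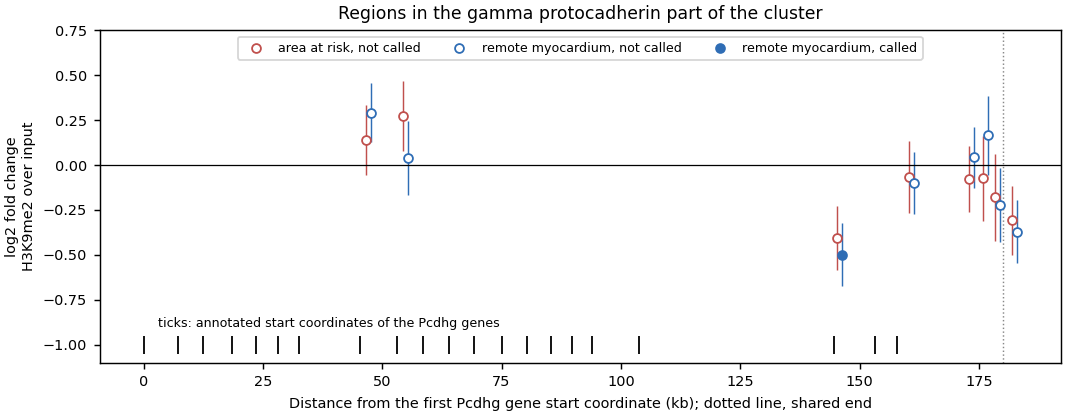
Log2 fold change of H3K9me2 over input with its SE for the 8 regions of the gamma protocadherin genes, by distance in kb from the first gamma gene. Ticks mark gene start coordinates and the dotted line the shared end, and the single filled point is the remote myocardium value of −0.50 near Pcdhgc3.

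Set beside the cluster, classical cadherins had 12 of 47 regions higher and 2 lower in the AAR, and 23 higher and 1 lower in the RM, with medians of 0.24 and 0.32. Without Cdh4 these were 4 higher and 2 lower of 27 in the AAR and 6 higher and 1 lower in the RM, with a median of 0.10 in each. Shares higher were 25.5% in the AAR and 48.9% in the RM with Cdh4, and 14.8% and 22.2% without it. Over all regions 11.3% and 20.5% were higher, so the shares without Cdh4 lay near these. Lower were 7.4% and 3.7% without Cdh4, against 12.3% and 20% over all regions. Over regions that overlap no other, classical cadherins averaged 11.1 ± 1.08 CPM per kb in AAR H3K9me2, 11.5 ± 0.73 in RM H3K9me2, 9.03 ± 0.22 in AAR input and 9.23 ± 0.43 in RM input (SD, n = 6 mice, 39 regions). The cluster averaged 8.28 ± 1.13 CPM per kb in AAR H3K9me2, 8.81 ± 0.97 in RM H3K9me2, 9.12 ± 0.91 in AAR input and 9.32 ± 0.38 in RM input (SD, n = 6 mice, 8 regions). The 2 classes thus had inputs of like level and differed in the precipitated libraries. The log2 ratio of H3K9me2 to input in a mouse averaged 0.29 ± 0.13 (SD) for classical cadherins in the AAR, from 0.06 to 0.41, and 0.32 ± 0.07 in the RM, from 0.22 to 0.44. For the cluster it averaged −0.14 ± 0.17 in the AAR, from −0.31 to 0.15, and −0.09 ± 0.19 in the RM, from −0.29 to 0.26. The classical ratio minus the cluster ratio was above 0 in 5 of 6 mice in the AAR, averaging 0.44 ± 0.29 (SD), and in 6 of 6 in the RM, averaging 0.41 ± 0.20. Mouse 23 was the exception in the AAR, with 0.06 for classical cadherins and 0.15 for the cluster. These class values are descriptions without a test, and 20 of the 47 tested classical regions belong to Cdh4. The ratios per mouse rest on the 39 of 59 classical regions that overlap no other and on all 8 cluster regions. They were not computed without Cdh4.

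**Figure D4:**
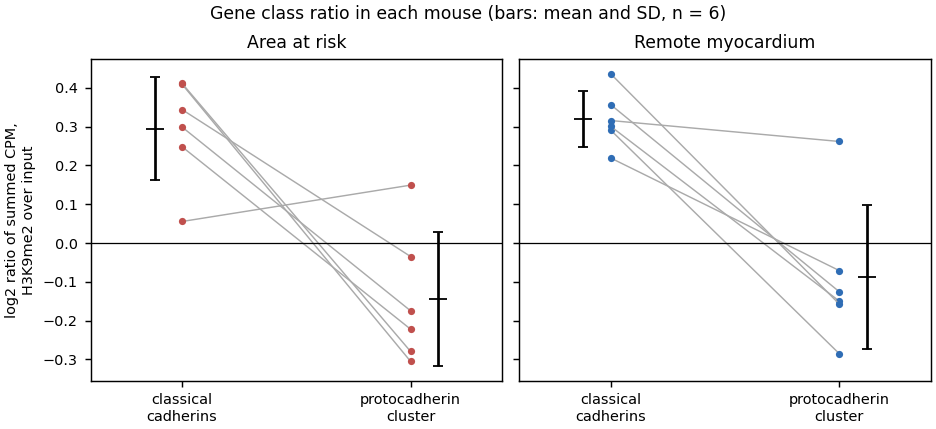
Log2 ratio of summed CPM, H3K9me2 over input, for classical cadherins and the protocadherin cluster, with a line per mouse and mean and SD as bars (n = 6). All 6 classical values lie above 0 in each biopsy, and 1 of 6 cluster values does.

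Among the other protocadherins the mark was lowest at Pcdh1, a delta-1 protocadherin known from airway epithelium. Of its 5 tested regions, 0 were higher and 2 lower in the AAR, and 0 higher and 4 lower in the RM, with medians of −0.51 and −0.77. At chr18:38209400-38211999, which stops just inside the gene's end of higher coordinate, H3K9me2 held 4.80, 11.6 and 17.0 CPM in the AAR and 7.26, 9.36 and 31.6 CPM in the RM. The inputs held 22.3, 27.4 and 32.7 CPM in the AAR and 23.7, 32.1 and 40.8 CPM in the RM. In the AAR all H3K9me2 libraries lay below all inputs, and in the RM mouse 22 at 31.6 CPM was the only H3K9me2 library to reach the input range. The log2 fold changes were −1.15 in the AAR (SE 0.22, FDR 9.99e-05) and −1.22 in the RM (SE 0.20, FDR 7.69e-08), the lowest values of the family. The adjacent region, chr18:38212600-38216399, held 10.8, 21.3 and 34.3 CPM in AAR H3K9me2, 11.3, 22.2 and 26.5 CPM in RM H3K9me2, 28.5, 37.1 and 44.4 CPM in AAR input and 34.6, 37.4 and 40.8 CPM in RM input. H3K9me2 was below input in all 6 mice of either biopsy, with log2 fold changes of −0.67 (FDR 0.00407) and −0.77 (FDR 3.87e-05).

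Pcdh12 encodes a protocadherin of endothelial cells and had 4 regions, 1 of them lower than input in the AAR and 0 called in the RM. The called region, chr18:38280400-38285799, lies within 2 kb of Rnf14 as well. It held 14.4, 30.9 and 39.6 CPM in AAR H3K9me2, 32.1, 36.3 and 39.2 CPM in RM H3K9me2, 35.3, 42.4 and 46.6 CPM in AAR input and 37.3, 41.0 and 50.2 CPM in RM input. The ranges overlapped in both biopsies. Its log2 fold change was −0.43 in the AAR (FDR 0.0362) and −0.22 in the RM (FDR 0.215). The AAR call was lost in DESeq2 (adjusted p 0.0812) and without mouse 17, 22, 23 or 30. The smallest p of Pcdh12 in the RM was at chr18:38262600-38266599, near Dele1, with −0.30 (FDR 0.0951). Pcdh17, a delta-2 protocadherin of neural circuits, had 1 region with 14.4, 18.8 and 27.0 CPM in AAR H3K9me2, 6.77, 22.4 and 30.6 CPM in RM H3K9me2, 16.1, 18.9 and 26.2 CPM in AAR input and 14.8, 18.04 and 22.1 CPM in RM input. The groups overlapped throughout and neither biopsy was called.

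Outside the classical cadherins, Cdh13 carried the most enriched regions of the family. It encodes T-cadherin, which is anchored to the membrane by a lipid, lacks the tail that binds catenins, and binds adiponectin in heart and vessels. The gene spans 1185 kb of chromosome 8, and all 29 of its regions were tested and had a log2 fold change above 0 in both biopsies. In the AAR 17 were higher than input and in the RM 24, with 15 called in both, medians of 0.57 and 0.64, and 0 lower. The region of smallest p in the RM, chr8:119077400-119081799, held 43.5, 61.2 and 68.5 CPM in AAR H3K9me2 and 61.2, 71.7 and 81.3 CPM in RM H3K9me2. The inputs held 34.7, 35.8 and 44.6 CPM in the AAR and 26.0, 35.4 and 38.5 CPM in the RM. H3K9me2 exceeded input in all 6 mice of either biopsy, and in the RM the groups did not overlap. Fold changes on the log2 scale were 0.64 in the AAR (SE 0.13, FDR 0.000408) and 1.12 in the RM (SE 0.12, FDR 9.54e-15). The highest AAR value of Cdh13, 0.95, was at chr8:119052400-119054999 (FDR 0.000351).

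Cdh23, a cadherin of the tip links of hair cells in the inner ear, had the most regions and no common direction. Of 46 tested regions, 4 were higher and 1 lower in the AAR, and 7 higher and 4 lower in the RM, with medians of 0.09 and 0.05. The gene Vsir, which encodes an immune checkpoint receptor, lies within Cdh23, and the lowest called values were near it. At chr10:60346000-60354399, near one end of Vsir, H3K9me2 held 30.1, 43.6 and 52.7 CPM in the AAR and 22.6, 31.6 and 43.3 CPM in the RM. The inputs held 50.5, 57.7 and 70.2 CPM in the AAR and 51.8, 60.7 and 67.7 CPM in the RM, and in the RM the groups did not overlap. The log2 fold change was −0.45 in the AAR (FDR 0.0117) and −0.86 in the RM (FDR 3.22e-08). Of the 13 tested Cdh23 regions within 2 kb of Vsir, 0 were higher and 1 lower in the AAR, and 1 higher and 3 lower in the RM. Of the 33 farther away, 4 were higher and 0 lower in the AAR, and 6 higher and 1 lower in the RM. Near Vsir 7.7% were lower in the AAR and 23.1% in the RM, against 12.3% and 20% over all regions. Farther away 12.1% and 18.2% were higher, against 11.3% and 20.5%, so both lay near the shares over all regions. Higher regions near Vsir (0% and 7.7%) and lower ones farther away (0% and 3.0%) were below those shares. This split was made after the values were seen. In the RM the 1 lower region away from Vsir covers the Cdh23 promoter (chr10:60696400-60699399) and had −0.22 in the AAR (FDR 0.405) and −0.47 in the RM (FDR 0.0308). It held 17.6, 22.1 and 32.4 CPM in AAR H3K9me2 and 8.71, 19.2 and 25.5 CPM in RM H3K9me2, against 21.9, 25.9 and 30.4 CPM in AAR input and 19.9, 27.1 and 32.7 CPM in RM input.

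**Figure D5:**
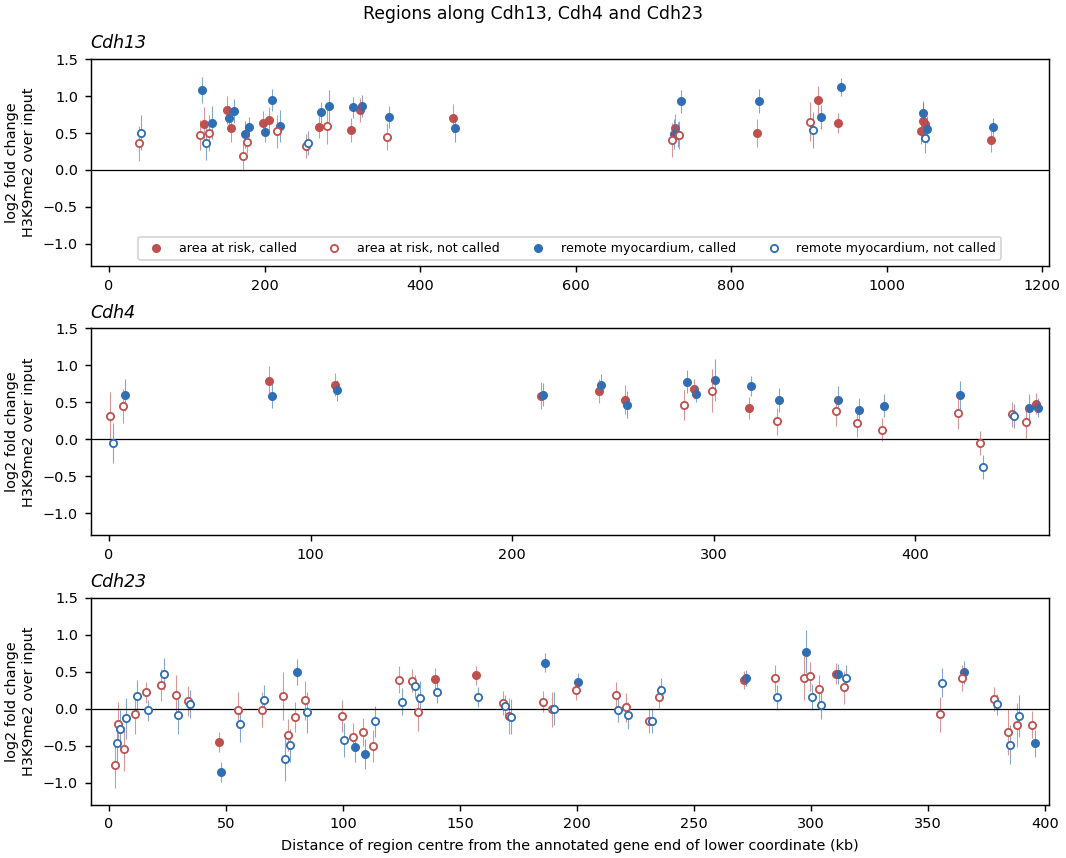
Log2 fold change of H3K9me2 over input with its SE along Cdh13, Cdh4 and Cdh23, by distance in kb from the annotated end of lower coordinate. Filled points were called at an FDR of 0.05 and open points were not. All 29 Cdh13 regions lie above 0, and Cdh23 has called regions on both sides of 0 in each biopsy.

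The remaining genes had few regions. Cdh16, a cadherin of kidney epithelium, had both of its regions higher in the RM, with 0.50 (FDR 0.00196) and 0.49 (FDR 0.0481), and neither called in the AAR, with 0.32 and 0.37. Cdhr2, which links microvilli of the brush border, had 2 of 5 regions higher in both biopsies. At chr13:54709200-54712399 it had 0.60 in the AAR (FDR 0.00511) and 0.52 in the RM (FDR 0.00356), and the AAR call was lost without mouse 30 (FDR 0.0616). Cdhr3, in humans a receptor for rhinovirus C, had 2 of 4 regions higher in the RM and 0 in the AAR. Its region chr12:33046000-33049199 held 30.1, 34.3 and 45.6 CPM in AAR H3K9me2, 30.5, 43.5 and 52.4 CPM in RM H3K9me2, 20.99, 29.5 and 34.6 CPM in AAR input and 18.3, 25.0 and 27.6 CPM in RM input. In the RM the groups did not overlap, and the log2 fold change was 0.33 in the AAR (FDR 0.130) and 0.85 in the RM (FDR 8.98e-07). Cdhr4 and Cdhr5 had no call in either biopsy. The lowest value of Cdhr5, the partner of Cdhr2 in the brush border, was −0.54 in the AAR (FDR 0.0614), which became −0.59 (FDR 0.0416) with the mouse as a block.

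Family regions near gene ends and those farther inside differed in their values against input, with all genes pooled. Regions within 2 kb of an annotated end of their own family gene had 2 higher and 5 lower of 30 tested in the AAR, and 3 higher and 6 lower in the RM, with medians of −0.06 and −0.22. Regions farther inside had 33 higher and 1 lower of 125 in the AAR, and 57 higher and 4 lower in the RM, with medians of 0.32 and 0.37. At any position, Cdh13 had 17 higher regions in the AAR and 24 in the RM, and Cdh4 had 8 and 17. Neither this split nor the split by neighbouring genes below was repeated without Cdh13 and Cdh4, so position was not separated from gene. Over all regions, those within 2 kb of an end of any coding gene had medians of −0.25 in the AAR and −0.30 in the RM. Of these, 3.3% were higher and 26.7% lower in the AAR, and 7.2% and 38.6% in the RM. Those farther inside coding genes had medians of 0.03 in each, with 9.8% higher and 7.7% lower in the AAR and 18.8% and 15.35% in the RM. The definitions differ, because a family region at an end of another gene, such as Vsir, was counted as farther inside. Outside the cluster, 24 tested regions had another coding gene within 2 kb, and 0 were higher and 4 lower in the AAR, and 1 higher and 4 lower in the RM. With no such neighbour, 35 of 123 were higher and 2 lower in the AAR, and 59 higher and 5 lower in the RM. That grouping too was made with the values in view. Other long genes leaned upward too: inside other coding genes of at least 300 kb, 24.9% of 2001 tested regions were higher in the AAR and 43.2% of 1991 in the RM, with medians of 0.30 and 0.35. The family as a whole, short genes included, had 22.6% and 38.7% higher. For its own listed genes of that length, the AAR and RM medians were 0.57 and 0.64 in Cdh13, 0.44 and 0.56 in Cdh4, and 0.09 and 0.05 in Cdh23. The part of gene length in the family's values was not tested.

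Between the biopsies no region of the family was called. For H3K9me2 of the AAR against the RM, edgeR called 0 of 131 tested regions, where 0% were called over all 31526, and 7 had an unadjusted p under 0.05, against 1272 of the 31526. DESeq2 called 0 as well. The median difference was −0.10 over 43 classical cadherin regions and −0.02 over the 8 cluster regions, with a median SE of 0.20 per region. The smallest p was at Cdh23, in the region chr10:60381400-60383599 near Vsir, which held 13.0, 19.8 and 25.2 CPM in AAR H3K9me2 and 21.7, 28.1 and 37.9 CPM in RM H3K9me2. The AAR was lower in all 6 mice while the group ranges overlapped, with a log2 fold change of −0.58 (SE 0.21, unadjusted p 0.00746, FDR 0.999). The next 2 by p among lower values were −0.36 at Cdh23 chr10:60486400-60490799 (unadjusted p 0.0255) and −0.40 at Cdh13 chr8:118873200-118875999 (unadjusted p 0.0284). Among higher values the smallest p were at Cdh23, with 0.36 at chr10:60457800-60461999 (unadjusted p 0.0229) and 0.37 at chr10:60346000-60354399 (unadjusted p 0.0377), and the next, also in Cdh23, had 0.45 (unadjusted p 0.0663).

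After correction for input, taken as the interaction of biopsy and precipitation over all 24 libraries, edgeR called 0 of 157 regions, where 0% were called over all, and 6 had an unadjusted p under 0.05, against 1728 of all 42445. DESeq2 called 0. The smallest p was 0.00754, at Cdh23 chr10:60486400-60490799 (log2 difference −0.53), followed by the Cdh13 region chr8:119077400-119081799 at −0.48 (SE 0.18, unadjusted p 0.00928). For the inputs, AAR against RM, edgeR and DESeq2 called 0 of 156, where 0% were called over all, and 1 had an unadjusted p under 0.05, at Cdh24, against 1157 of all 42603. More regions were called against input in the RM than in the AAR, in this family as over all regions, and no difference between the biopsies passed a test of that difference itself. Across the 155 regions the log2 fold changes over input in the 2 biopsies correlated at Pearson's r = 0.833 and Spearman's rho = 0.843, as a description; over all 40333 regions these were 0.845 and 0.84. The biopsies share animals, and regions that overlap share reads.

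Genes whose products work with cadherins were counted in the same fits, from lists chosen with earlier results known. A gene with several regions has more chances of a call, so region counts are given beside the gene counts. Over all regions 11.3% were higher and 12.3% lower in the AAR, and 20.5% and 20% in the RM. Of 11 catenin and plakophilin genes tested, 3 had only higher, 2 only lower and 1 both kinds of called region in the AAR, and 3, 2 and 2 in the RM. By region these were 6 higher and 7 lower of 38 in the AAR and 6 higher and 11 lower of 37 in the RM. Jup encodes plakoglobin, a catenin, and had 5 of 6 regions lower in the AAR and 6 of 6 in the RM. Its region of smallest p had −1.37 in the AAR (FDR 4.56e-09) and −1.296 in the RM (FDR 1.05e-12). Ctnnb1, beta-catenin, had −0.70 and −0.75, while Ctnnd2, a delta-catenin of neurons, had 0.85 and 1.12. Ctnna3, the alphaT-catenin of cardiac discs, had 1 tested region, with 0.75 in the AAR (SE 0.27, FDR 0.0375) and 0.42 in the RM (FDR 0.1745, not called). Pkp4, a plakophilin, had called regions in both directions, with −1.28 at its smallest p in the AAR and 0.67 at another region in the RM.

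Of 12 tested Fat, Dachsous, Celsr, calsyntenin and Ret genes, the more distant cadherins, 3 had only higher and 4 only lower regions in the AAR, and 6 only higher and 4 only lower in the RM. By region these were 3 higher and 4 lower of 46 in the AAR and 9 higher and 7 lower of 46 in the RM. Fat3 had 0.76 and 1.21, Celsr3 −0.61 and −0.75, and Fat4 −0.63 and −0.65 in the AAR and RM. Clstn1 had −0.72 in the AAR, and Celsr2 −0.78 and Fat2 0.77 in the RM. Of 11 nectin and junction adaptor genes, 1 had only higher and 5 only lower regions in the AAR, and 2 only higher, 5 only lower and 1 both in the RM. By region 4 were higher and 7 lower of 72 in the AAR, and 12 higher and 12 lower of 71 in the RM. Nectin2 had −1.85 in the AAR and −1.32 in the RM, and Vcl, the vinculin gene, −1.04 and −1.103. Afdn, encoding the nectin linker afadin, had −1.37 and Iqgap1 −1.22 in the AAR. Tjp1, encoding the scaffold ZO-1, had 0.87 in the RM, and Ptprm −0.84 there beside 8 regions that were higher.

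Of 8 tested genes for regulators of the protocadherin cluster, 0 had only higher and 3 only lower regions in the AAR, and 2 only higher and 4 only lower in the RM. Of their 19 regions, 0 were higher and 4 lower in the AAR, and 3 higher and 5 lower in the RM. The shares over all regions were 11.3% higher and 12.3% lower in the AAR, and 20.5% and 20% in the RM. Nipbl, which loads cohesin, had −1.45 in the AAR and −0.93 in the RM. Wapl, which releases cohesin, had −0.81 and −0.75, both at 1 region. Wiz, a zinc finger partner of G9a and GLP, had −0.75 in the AAR and −0.84 at another of its regions in the RM. Smc1a, a cohesin subunit, had 0.67 in the RM. Cell type marker genes were read for the mark alone. Of the 5 cardiomyocyte genes tested, 0 had a higher region and 2 had lower regions in the AAR, and 0 and 3 in the RM. Of their 13 regions 5 were lower in the AAR and 9 in the RM, where 12.3% and 20% of all regions were lower. Their medians were −0.58 and −0.69. Endothelial marker genes had medians of −0.02 and −0.04 over 34 regions, with calls in both directions. Of those 34, 4 were higher and 9 lower in the AAR, and 3 higher and 8 lower in the RM. The neuron and glia genes had medians of 0.21 over 46 regions in the AAR and 0.24 over 47 in the RM. Rbfox3 alone held 38 of those 46 AAR regions. At their regions of smallest p in the AAR, Grin1 had −0.58 (FDR 0.000893) and Gfap −0.45 (FDR 0.147, not called). For fibroblast genes the medians were −0.23 and −0.46 over 8 regions, and for leukocyte genes −0.46 and −0.76 over 3. The genes of these lists went both ways. Of 3 fibroblast genes, 1 had only higher and 1 only lower regions in the AAR, and 1 and 2 in the RM. Of 2 leukocyte genes, 1 had only higher and 1 only lower regions in each biopsy. At their smallest p, Ddr2 of fibroblasts had 0.69 and 1.34, and Itgam of leukocytes 0.71 and 0.88.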

How the data were processed

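H3K9me2 precipitates and inputs of 2 biopsies from 6 mice gave 24 libraries. The authors deposited 4 tables of whole-number counts per region and library over the same 53386 regions of mm10, each with a log2 fold change, log2 CPM, p-value and FDR, per the file headers. The deposited log2 fold change has the opposite sign to the one used here, as its values show. Bowtie2 2.2.2, SICER 1.1 and edgeR are named, without roles, per the submitters' processing notes; duplicate handling, the calling of regions and counting in overlaps are not given in the sources used here. Counts in regions stand for depth, and reads outside them are unknown.

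Counts were fitted per comparison over all regions with edgeR 4.0.16 (R 4.3.3), with TMM scaling, filterByExpr and the two-sided quasi-likelihood test, at a Benjamini-Hochberg FDR of 0.05. DESeq2 1.42.0 was the other tool. Code was tested on simulated data. At an FDR under 0.05 the authors' deposited tables held 32 higher and 5 lower regions of the family in the AAR and 52 higher and 9 lower in the RM, of which 36 and 61 were also called here, all in the same direction. Genes were matched to RefSeq GRCm38.p6 by coordinates, without strand. Class levels sum CPM over regions that overlap no other.

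Members and lists were chosen with earlier results of these data known. Genes named were all classical and clustered genes with a tested region, other members with a call, a set list of heart and neural members, up to 4 called genes per partner list, and the 3 regions of smallest p per direction between biopsies. Per-library values were planned for listed genes and class extremes, and the others shown were added with values known. Mouse numbers pair the groups because the same animals gave them. Same-mouse deviations correlated from −0.01 to 0.18 between H3K9me2 and input in the AAR, 0.01 to 0.09 in the RM and −0.22 to 0.07 between H3K9me2 of the biopsies. Alternatives were the mouse as block, other scalings, no filter, DESeq2, each mouse left out, and stricter choices of regions. No library was a copy of another of its group, with chi-square per region from 1.02 to 2.00.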

Additional observations from a re-analysis of the deposited data

Results flagged for a closer look

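Groups of 6 were examined for a library standing apart from the others, and 8 of 62 groups held one, where chance gives about 1 in 20. At the Cdh4 region chr2:179741800-179742599 mouse 22 had the lowest H3K9me2 level in the AAR, 7.2 CPM with the next at 13.3, and also the highest AAR input level, 20.3 CPM with the next at 9.33. At the Cdh4 region chr2:179812600-179815399 mouse 30 had the lowest AAR H3K9me2 level, 17.8 CPM with the next at 27.0. These regions were not called in the AAR.

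The other levels standing apart were in inputs. Mouse 19 had 30.9 CPM in RM input at Cdh24 chr14:54642800-54645399, and mouse 23 had 31.5 CPM in AAR input at Pcdh1 chr18:38182000-38190999. Mouse 30 had 50.2 CPM in RM input at Pcdh12 chr18:38280400-38285799, and mouse 17 had 38.5 CPM in AAR input at the gamma protocadherin region chr18:37806000-37808999. The log2 ratio of H3K9me2 to input over the non-classical Cdh and Cdhr genes stood apart in the RM of mouse 23, at 0.56 with the next at 0.43. Their part in the results was not tested beyond leaving out each mouse.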

How the results depend on the processing

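Leaving out each mouse gave 27 to 43 calls for the family against input in the AAR, where 41 were called with all mice, and the lowest count was without mouse 19. The RM median of classical cadherin regions, 0.32, ran from 0.30 to 0.37 with a mouse left out and was 0.43 over regions that overlap no other; the cause was not tested. With the mouse as replicate block the family had 49 calls in the AAR and 74 in the RM, and 0 between biopsies, between inputs and in the interaction. The block moved Cdh2 in the RM and Cdhr5 in the AAR past the threshold and changed no other call among the named regions. The other counts and class medians stayed within 1.5 times or within the spread over mice under the scalings, filter, tool and region choices run. In the AAR 11 values of uncalled regions near 0 changed sign. Pcdh17 became 0.0069 with median-of-ratios size factors, 0.0078 with DESeq2 and 0.00054 without the filter, and ran from −0.088 to 0.078 with a mouse left out. Cdh2 became 0.0012 with median-of-ratios size factors, 0.0067 with DESeq2, and ran from −0.096 to 0.13 with a mouse left out. Cdhr4 ran from −0.16 to 0.042. Depth limits what is seen: the median SE of a region of the family was 0.20 between the biopsies and 0.26 in the interaction. Reads in overlapping regions may be missing from part of them.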
